A study of Mus musculus with 4 samples.

Results

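ApoE is the main lipid-carrying apolipoprotein that macrophages and brain cells secrete, and the genes around it form one route by which a phagocyte handles the cholesterol of the membranes and myelin that it takes up. Transporters of the ABC family (Abca1, Abcg1) load cholesterol onto apolipoproteins outside the cell, and the nuclear receptor LXRα (Nr1h3) switches many of these genes on when it binds oxysterols. Cholesterol that is not exported is esterified and stored in lipid droplets, a state known from foam cells and from microglia and macrophages that clear debris.

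The expression of 10 genes of this route, out of 31253 genes in the feature table, was followed through the immune infiltrate of a mouse glioma. They were taken by symbol: Apoe, Apoc1, Apoc2 and Lpl (lipoprotein particles and their lipase), Abca1 and Abcg1 (transporters), Nr1h3 and Ch25h (the receptor and an enzyme that makes an oxysterol), and Plin2 and Soat1 (droplet coat and esterification). The cells were live CD45+ leukocytes sorted from tumor-bearing hemispheres on day 14 after intracranial implantation of CT2a, a glioma line of C57BL/6 mice. WT mice (C57Bl/6 background, n = 4) were compared with CaMKK2 KO mice (germline CaMKK2-/- on the same background, n = 4), which lack a calcium-dependent kinase in all cells, the implanted tumor cells excepted. The study states that its experiments used female mice matched for age, and no drug treatment is given for these samples. Each mouse carried its own oligo-tagged antibody (hashtag), and each genotype's mice shared a single 10X channel, so genotype and channel cannot be told apart.

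Each cell was assigned to its mouse by hashtag and to an immune class by marker genes, in a clustering that left out all 10 genes. After filtering, 5061 WT and 5627 CaMKK2 KO cells remained, with 1007 to 1653 cells and 11886079 to 19877224 unique molecular identifiers (UMIs, counted transcripts) per mouse. The libraries shared 42 barcodes. Levels are given as CPM (UMIs of a gene scaled to the total UMIs of the class in that mouse), as mean ± SD over mice. Camkk2, the deleted gene, was at 27.4, 29.3, 37.8 and 28.1 CPM over all cells of the WT mice and at 14.7, 18.7, 13.5 and 22.8 CPM in the CaMKK2 KO mice, so the groups did not overlap but the gene was still counted in every CaMKK2 KO mouse, and totals per gene do not show which part of the transcript was read (exact two-sided permutation test, p = 0.0286, the smallest that 4 against 4 mice allow).

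Apoe, Apoc1 and Apoc2 lie in one cluster on chromosome 7, all on the minus strand (GRCm38 coordinates throughout, GENCODE M21 annotation). Apoe (ENSMUSG00000002985) spans 19696109 to 19699188 in 4 exons. Apoc1 (19689481 to 19692660) lies 3448 bases from it and Apoc2 (19671579 to 19677941) 18167 bases from it. Apoc2 overlaps the annotated gene Gm44805 on the same strand, so UMIs of the pair can be split or lost by the authors' counting. The other members are scattered: Lpl on chromosome 8 (68880491 to 68907448), Abca1 on chromosome 4 (53030787 to 53159895), Abcg1 on chromosome 17 (31057675 to 31117988), Nr1h3 on chromosome 2 (91184061 to 91202834), Ch25h on chromosome 19 (34473778 to 34475164, 1 exon), Plin2 on chromosome 4 (86648386 to 86670060) and Soat1 on chromosome 1 (156424525 to 156474331).

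The promoters of Apoe and Abca1 are shown because these were the genes whose genotype differences passed a test at the main count minimum. Each run holds the 250 bases upstream of the start site on the gene's own strand, from RefSeq on GRCm38.p6, chr7:19699189-19699438 (minus) for Apoe and chr4:53159896-53160145 (minus) for Abca1. Capitals mark matches to the motifs searched below.
Apoe: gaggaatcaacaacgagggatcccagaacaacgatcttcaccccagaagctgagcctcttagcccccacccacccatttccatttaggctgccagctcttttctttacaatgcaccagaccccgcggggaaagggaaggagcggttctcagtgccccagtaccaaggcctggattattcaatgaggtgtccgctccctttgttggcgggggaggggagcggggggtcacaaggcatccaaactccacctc
Abca1: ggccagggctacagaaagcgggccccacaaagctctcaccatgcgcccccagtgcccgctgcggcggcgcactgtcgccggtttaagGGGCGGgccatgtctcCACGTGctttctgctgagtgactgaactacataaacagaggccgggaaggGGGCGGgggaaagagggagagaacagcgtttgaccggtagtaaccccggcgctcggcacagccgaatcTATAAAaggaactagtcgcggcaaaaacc
The table of promoters held an entry for 7 of the 10 genes. Both strands were searched for the nuclear receptor site AGGTCA (in 16.3% of 32851 listed promoters of the same length, 250 bases before and 50 after the start), the direct repeat of that site with a spacer of 4 bases, to which LXR binds (0.0152%; every match also holds the shorter site), TATAAA (13.6%), the GC box GGGCGG (35.7%), TGACGTCA (1.79%), TGAGTCA (5.20%) and the E-box CACGTG (7.15%). The Apoe window held none of these letters. The Abca1 window held TATAAA at -29, GGGCGG at -163 and -97, and CACGTG at -147, counted from the start site. A match is a string of letters and was not tested for binding. Only exact strings were searched, so a site that departs from them by any base was not seen. A missing match to the repeat therefore does not show that LXR does not bind there.

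In WT mice the order of its mean level was tumor-associated macrophage (TAM)-like cells (31674 ± 5455 CPM), microglia-like cells (14332 ± 6325), classical monocyte (cMono)-like cells (7574 ± 2654, n = 3), non-classical monocyte (ncMono)-like cells (7271 ± 1984) and B cell-like cells (1853 ± 620). Dendritic, T and NK cell-like classes lay between 216 and 364 CPM. The place of B cell-like cells rests on few UMIs: the median WT cell held 4 Apoe UMIs, beside 3 in NK-like cells. Their median depth over both genotypes was 4208 UMIs, beside 7219.5 in NK-like cells. In WT B cell-like cells 10% of the cells held 47.7% of the Apoe UMIs. The WT mice of TAM-like cells did not overlap those of microglia-like cells, whereas microglia-like, cMono-like and ncMono-like cells overlapped their neighbours in this order, and so did all classes below the B cell-like cells. In CaMKK2 KO mice the first place went to microglia-like cells (3259 ± 1614 CPM), which overlapped TAM-like cells (1870 ± 1277), and every class overlapped the next in order. Levels over classes are a description, since the classes of a mouse share its library.

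**Figure D1:**
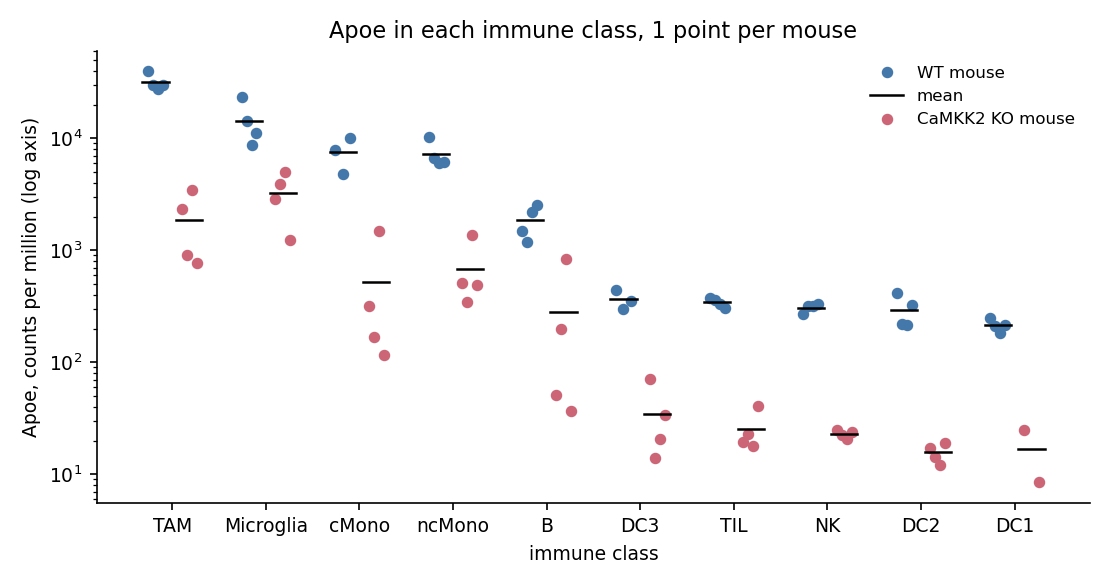
Apoe level (CPM, log axis) in each immune class, 1 point per mouse and a bar at the mean, for WT (blue) and CaMKK2 KO (red). In all classes shown, DC1 with 2 CaMKK2 KO mice included, the red points lie below the blue points, with log2 fold changes from -4.26 in DC2-like to -2.14 in microglia-like cells.

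The Apoe level, free RNA in droplets included, was lower in CaMKK2 KO mice in all 9 classes with enough mice for a test. In TAM-like cells it stood at 39651, 29779, 27299 and 29969 CPM in the 4 WT mice and at 2322, 917, 3472 and 768 CPM in the 4 CaMKK2 KO mice. The lowest WT mouse was thus far above the highest CaMKK2 KO mouse, and the CaMKK2 KO mean was 5.90% of the WT mean. The log2 fold change was -4.08 ± 0.49 (SE; edgeR quasi-likelihood test, adjusted p = 0.0031 over 9578 genes), the 10th lowest of all genes tested in this class. Apoe was the 1 member called among the 9 members tested in TAM-like cells, where 2.39% of all genes were called lower, and 12.1% had all CaMKK2 KO mice below all WT mice. The median log2 fold change of the 9 tested members was -0.20, beside -0.10 for all genes tested.

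Microglia are the resident macrophages of the brain and were set apart from TAMs by genes such as P2ry12 and Sall1. In microglia-like cells Apoe was at 23180, 14245, 8661 and 11241 CPM in WT mice and at 2888, 3870, 5047 and 1232 CPM in CaMKK2 KO mice. The groups did not overlap, and the log2 fold change was -2.14 ± 0.38 (edgeR, adjusted p = 0.010), so Apoe kept 22.7% of its WT mean here. It was the only member called of 7 tested, against 0.951% of all genes called lower and 8.39% with all CaMKK2 KO mice below all WT mice. The genotype difference of Apoe was larger in TAM-like than in microglia-like cells by 2.12 on the log2 scale. An exact two-sided permutation test of per-mouse differences gave p = 0.0286, the smallest that these mice allow. The adjusted p was 0.19 over the 17 differences between classes that were compared, and none of the 17 passed. A lone difference at the smallest p cannot pass this correction, however large it is, so the correction cannot decide the question.

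In monocyte-like cells Apoe followed the same direction. In cMono-like cells WT mouse 1 had 5 cells and was left out, the other WT mice had 7811, 4810 and 10101 CPM, and the CaMKK2 KO mice had 317, 167, 1490 and 116 CPM. The high CaMKK2 KO value belonged to mouse 3, which had only 27 cells of this class. The log2 fold change was -3.96 ± 0.75 (edgeR, adjusted p = 0.015), and the call was lost with outlying cells kept (adjusted p = 0.057), with the B cell-like level subtracted (0.32) and without CaMKK2 KO mouse 1 (0.051) or 2 (0.056). The subtracted level, 179 CPM in CaMKK2 KO, was above the values of CaMKK2 KO mice 2 and 4. The subtraction left these mice without Apoe counts, and its part in the lost call was not tested. The 14 TAM markers in this class also did not overlap, at a sum of 3824 to 5368 CPM in WT against 2608 to 3779 CPM in CaMKK2 KO mice, and their part in the result was not tested. Apoe and Abca1 were called of the 6 members tested in cMono-like cells, where 1.61% of all genes were called lower and 6.92% had all CaMKK2 KO mice below all WT mice. In ncMono-like cells Apoe was at 10211, 6731, 6033 and 6111 CPM in WT mice and at 508, 348, 1371 and 492 CPM in CaMKK2 KO mice (log2 fold change -3.43 ± 0.40, edgeR adjusted p = 0.0012). It was the single call among 5 members tested, beside 0.92% of all genes called lower.

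Dendritic, NK, T and B cell-like classes, at far lower levels of Apoe, also had lower values in CaMKK2 KO mice. The part of free RNA in these values, to which the ratios below relate, was not tested. In NK-like cells Apoe was at 270, 315, 316 and 329 CPM in WT mice and at 24.8, 22.5, 20.8 and 23.7 CPM in CaMKK2 KO mice (log2 fold change -3.77 ± 0.12, edgeR adjusted p = 4.5e-11), with 1.36% of genes called lower in this class. In T cell (TIL)-like cells the log2 fold change was -3.85 ± 0.20 (0.334% of genes called lower), in DC2-like cells -4.26 ± 0.28 (0.589%), in DC3-like cells -3.57 ± 0.35 (0.78%) and in B cell-like cells -2.94 ± 0.71 (2.26%), with edgeR adjusted p of 5.5e-07, 9.1e-06, 0.00020 and 0.039. All CaMKK2 KO mice were below all WT mice in each of these classes, as for 5.21% of genes in ncMono-like, 3.82% in NK-like, 2.96% in TIL-like, 3.55% in DC2-like, 10.1% in DC3-like and 6.61% in B cell-like cells. The B cell-like call rested on few cells: 10% of them held 47.7% of the Apoe UMIs in WT and 91.1% in CaMKK2 KO, and with doublets kept it was lost (-1.24, adjusted p = 0.55). In DC1-like cells no test was made because 2 CaMKK2 KO mice had at least 10 cells, with 181 to 251 CPM in WT mice against 8.49 and 25.0 CPM.

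Free RNA in the droplets adds UMIs to cells that do not express a gene, so Apoe was set against C1qa, C1qb and C1qc, complement genes of macrophages. One source of free RNA keeps its genes in 1 ratio in every class of a library. In the WT library there were 2.13 Apoe UMIs per C1q UMI in TAM-like cells, 2.22 in NK-like, 2.02 in TIL-like, 2.19 in DC1-like and 2.35 in DC3-like cells. In the CaMKK2 KO library the same ratio was 0.208 in TAM-like, 0.253 in NK-like, 0.163 in TIL-like, 0.204 in DC1-like and 0.170 in DC3-like cells. The ratio in NK-like, TIL-like, DC1-like and DC3-like cells thus stood close to that of TAM-like cells in each library. Higher ratios were found in cMono-like (11 Apoe UMIs per C1q UMI in WT and 0.975 in CaMKK2 KO), ncMono-like (20.7 and 6.14) and B cell-like cells (5.78 and 1.35). Lower ratios were found in microglia-like (0.672 and 0.146) and DC2-like cells (1.04 and 0.0420). Over pooled cells Apoe was at 291 and 14.9 CPM in DC2-like cells, beside 312 and 22.3 CPM in NK-like cells. The C1q genes were at 280 and 355 CPM in DC2-like cells, beside 140 and 88.3 CPM in NK-like cells. The low ratio of DC2-like cells thus came with more C1q and not with more Apoe than in NK-like cells.

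Shares of cells with an Apoe UMI were compared after each cell was thinned to 3000 UMIs. In TAM-like cells the share was 99.7% ± 0.42 in WT and 41.8% ± 14.4 in CaMKK2 KO mice, after 11 and 12 shallower cells were left out (99.96% and 59.0% without thinning, at median depths of 15727 and 13870 UMIs). In NK-like cells, which are not known as a source of ApoE, the share was 64.2% ± 3.62 and 7.0% ± 1.2 (95% and 17.6% without thinning, at median depths of 8494 and 6400 UMIs). The WT share in NK-like cells is the level below which a share cannot be read as expression in that library. Both differences had an exact permutation p of 0.0286 and an adjusted p of 0.17 over 90 comparisons of shares. That p is the smallest that 4 against 4 mice allow. A few comparisons at it cannot pass a correction over 90, so the adjusted p cannot decide on these differences.

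**Figure D2:**
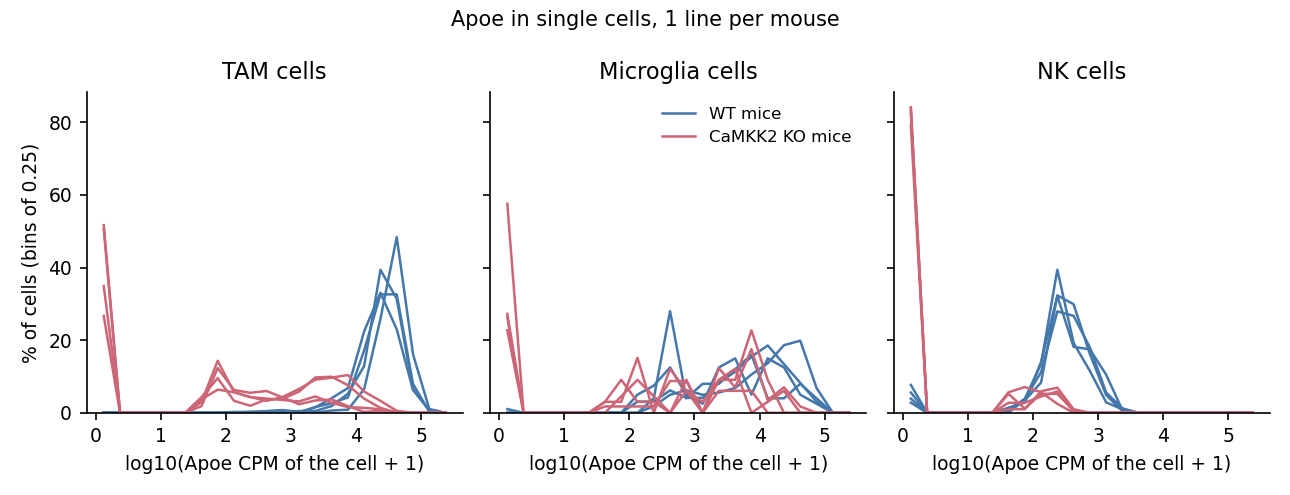
Percent of cells against log10(Apoe CPM of the cell + 1) in bins of equal width, 1 line per mouse, for TAM-like, microglia-like and NK-like cells of WT (blue) and CaMKK2 KO (red) mice. The WT TAM-like cells form 1 peak at the right, whereas 780 of 1950 CaMKK2 KO TAM-like cells had no Apoe UMI (the leftmost bin) and the rest spread widely, and most CaMKK2 KO NK-like cells are in the leftmost bin.

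Among single cells, the loss of Apoe in CaMKK2 KO TAM-like cells was uneven. The median was 454 Apoe UMIs per cell in WT and 1 in CaMKK2 KO TAM-like cells, and 91.5% of WT cells but 4.92% of CaMKK2 KO cells were over 10000 CPM. In CaMKK2 KO the 10% of cells with the most Apoe held 69.2% of its UMIs, against 24.9% in WT. A line at 1000 CPM of Apoe, drawn after the values were seen, put 38.2%, 14.5%, 45.5% and 12.1% of the TAM-like cells of CaMKK2 KO mice 1 to 4 above it, and these held 97.2%, 92.1%, 98.1% and 89.2% of the Apoe UMIs. In WT mice 98.2% to 99.8% of the TAM-like cells were above the line. The CaMKK2 KO cells above it averaged 5777, 5455, 7307 and 4835 CPM of Apoe, still below the lowest WT mouse (27299 CPM). Of the 1950 cells 128 lay near the line.

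The CaMKK2 KO TAM-like cells above and below that line were then set side by side within each mouse, as a description. Apoc1 was higher above the line in 4 of 4 mice (mean 40.6 against 12.6 CPM), and so was Abca1 (81.7 against 56.0 CPM). For Abca1 this count includes CaMKK2 KO mouse 2, where the values were nearly the same (109 against 107 CPM). The C1q genes (12052 against 8509 CPM in sum) and the 14 TAM markers (17359 against 13217 CPM) were also higher above the line in 4 of 4 mice, as were the 12 microglia markers (839 against 603 CPM), while the 9 cMono markers were lower in 4 of 4 (3819 against 6015 CPM). Nr1h3, Lpl and Soat1 were higher above the line in 1 of 4 mice each. In microglia-like cells split the same way each side held 6 to 29 cells per mouse. Apoc1 and Lpl were higher above the line in 4 of 4 mice (Lpl 186 against 51.2 CPM). For Apoc1 this count includes CaMKK2 KO mouse 1, with 1 UMI on each side. For Lpl the widest gap was in CaMKK2 KO mouse 2 (370 against 40.6 CPM). The microglia, NK and B cell markers were higher above the line in 0 of 4. Cells above it were deeper in each mouse (median 15328, 19483, 17125 and 13573.5 against 11258.5, 14598, 12560 and 8463 UMIs). The 9 ncMono markers were also higher above the line in 4 of 4 mice (475 against 301 CPM), and their part was not tested.

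The TAM-like class was made up of different clusters in each genotype. A gate applied cell by cell put 2808 of its cells with TAM, 682 with cMono and 224 in no class. The name rested on 1 TAM marker among the leading genes of cluster 0 and on 3 in cluster 1. Cluster 0, led by genes of antigen presentation such as H2-Eb1 and Cd74, held 262 WT and 1769 CaMKK2 KO cells, and cluster 1, led by Pf4 and Spp1 beside Apoe, held 1571 WT and 181 CaMKK2 KO cells. Apoe was 26628 against 2006 CPM in cluster 0 (log2 ratio -3.73) and 32738 against 2398 CPM in cluster 1 (log2 ratio -3.77), so the ratio was nearly the same within each. The 14 TAM markers, all detected in both genotypes, summed to 19235 to 21580 CPM in WT against 10322 to 17116 CPM in CaMKK2 KO mice, and the cMono markers to 2441 to 3660 and 3734 to 8521 CPM. With only TAM-like cells over 10000 CPM of C1q genes, an alternative chosen after seeing the data, the log2 fold change of Apoe was -3.82 (edgeR, adjusted p = 0.00024).

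Apoc1 encodes a small apolipoprotein exchanged between lipoprotein particles, and its gene is the nearest neighbour of Apoe among the members. In TAM-like cells it was at 30.9, 10.2, 8.65 and 10.9 CPM in WT mice and at 33.2, 16.3, 22.5 and 7.11 CPM in CaMKK2 KO mice. The groups overlapped fully, and the log2 fold change was 0.40 ± 0.50 (edgeR, adjusted p = 0.63), so Apoc1 did not pass where Apoe did. In microglia-like cells Apoc1 was at 35.5, 19.0, 30.1 and 27.5 CPM in WT mice and at 4.18, 270, 36.1 and 15.8 CPM in CaMKK2 KO mice. A single mouse set the CaMKK2 KO mean (log2 fold change 1.40 ± 0.78, adjusted p = 0.36). In cMono-like and ncMono-like cells Apoc1 had 193 and 162 UMIs, and no test was made at the minimum of 200 UMIs.

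Apoc2, the cofactor that activates lipoprotein lipase, had 67 UMIs in TAM-like cells, 60 of them in WT, and 83 UMIs over all cells. Its level was 1.81, 2.83, 2.16 and 1.27 CPM in WT mice and 0.115, 0.135, 0.471 and 0.209 CPM in CaMKK2 KO mice, without overlap. Of the genes tested at the main minimum, which leaves Apoc2 out, 12.1% lay that way. It was under the count minimum, and with the minimum lowered to 20 UMIs its log2 fold change was -2.98 ± 0.49 (edgeR, adjusted p = 0.013 over 12468 genes). The counts are few and can be shared with Gm44805, which overlaps it. Outside TAM-like and monocyte-like cells Apoc2 had no UMI in any tested class.

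Lpl, the lipase that releases fatty acids from lipoproteins, was at 21.9, 54.3, 26.5 and 42.9 CPM in WT TAM-like cells and at 33.2, 1.89, 10.8 and 6.48 CPM in CaMKK2 KO TAM-like cells. CaMKK2 KO mouse 1 lay among the WT mice, and the other CaMKK2 KO mice lay below them. The log2 fold change was -1.43 ± 0.64 (edgeR, adjusted p = 0.19), and without CaMKK2 KO mouse 1 it was -2.48 (adjusted p = 0.040). Within clusters Lpl was 16.9 against 11.3 CPM in cluster 0 (log2 ratio -0.59) and 38.9 against 41.9 CPM in cluster 1 (log2 ratio 0.11). In microglia-like cells Lpl varied from 23.5 to 211 CPM in WT against 42 to 220 CPM in CaMKK2 KO mice, with a log2 fold change of 0.46 ± 0.57 (adjusted p = 0.71). In ncMono-like cells it was 94.0 ± 74.8 and 66.8 ± 37.8 CPM, again with full overlap (adjusted p = 0.85).

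**Figure D3:**
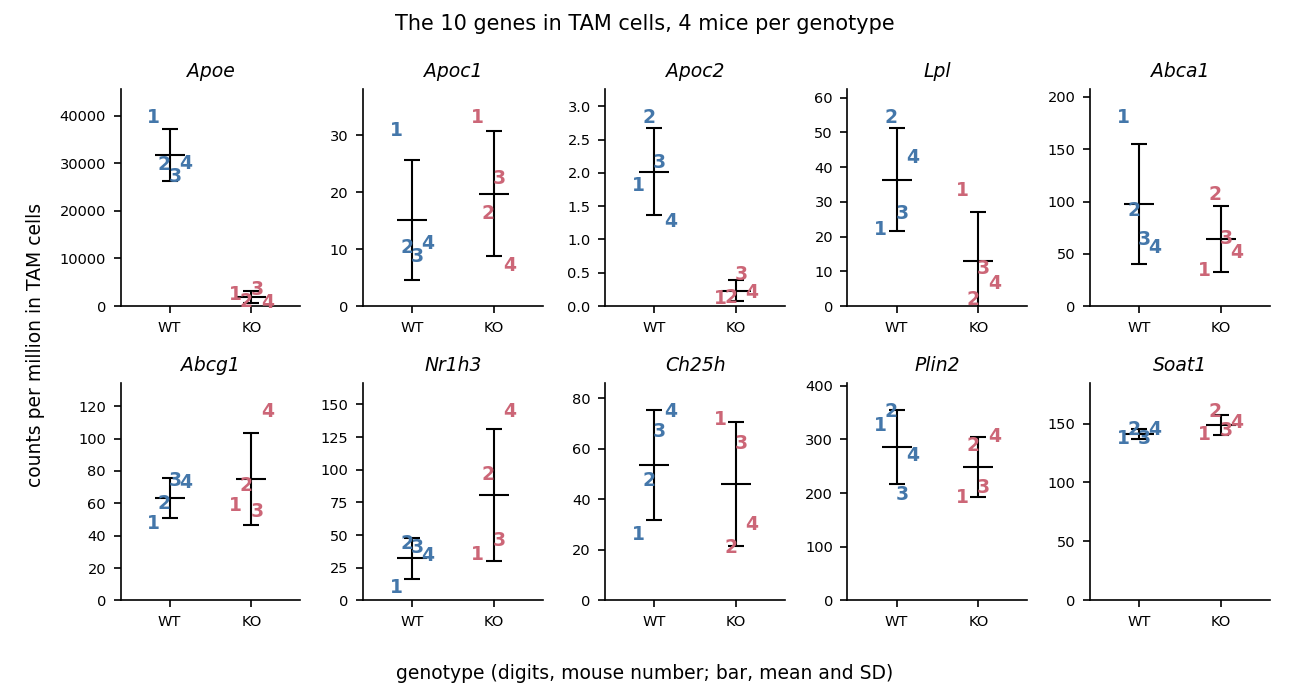
Level of each of the 10 genes in TAM-like cells (CPM, linear axis from 0, a separate scale for each gene), with the mouse number as the symbol and bars for mean and SD, for WT and CaMKK2 KO (KO). Apoe and Apoc2 (67 UMIs, under the main minimum) are the genes whose WT and KO mice do not overlap. All KO mice lay below all WT mice for 12.1% of the genes tested in this class. Soat1 stays between 137 and 160 CPM.

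Abca1, the transporter that starts the loading of ApoE and ApoA-I with cholesterol, was the other member with a change past the test at the main minimum. In cMono-like cells it was at 141, 58.1 and 57.6 CPM in WT mice 2 to 4 and at 13, 34.1, 29.9 and 22.2 CPM in CaMKK2 KO mice. All CaMKK2 KO mice were below all WT mice, and the log2 fold change was -1.80 ± 0.37 (edgeR, adjusted p = 0.024). Beside the lower TAM markers of this class, C1qa, C1qb and C1qc had log2 ratios of -1.74, -1.08 and -1.50 between the pooled cells of its cluster, where Abca1 had -1.65. The part of these macrophage genes in the result was not tested. The call was lost without WT mouse 2 (-1.24, adjusted p = 0.064), without CaMKK2 KO mouse 1 (adjusted p = 0.054) or mouse 4 (adjusted p = 0.083), and when classes were gated cell by cell (-1.17, adjusted p = 0.14). In ncMono-like cells Abca1 had 169 UMIs, and its levels of 81.4, 64.1, 45.9 and 59.2 CPM in WT against 13.8, 17.8, 17.4 and 11.9 CPM in CaMKK2 KO mice did not overlap. With the minimum lowered to 20 UMIs its log2 fold change there was -1.94 ± 0.27 (edgeR, adjusted p = 0.00092). The makeup of this class differed by genotype: its cMono markers summed to 11420 to 25618 CPM in WT against 6645 to 11660 CPM in CaMKK2 KO mice, and its ncMono markers to 1092 to 1790 against 1664 to 4192 CPM. A gate applied cell by cell put 237 of its cells with cMono and 180 with ncMono, and the part of this makeup in the values of Apoe and Abca1 was not tested.

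In TAM-like cells Abca1 was at 181, 91.8, 63.4 and 55.7 CPM in WT mice and at 33.8, 107, 64.7 and 51.0 CPM in CaMKK2 KO mice. The groups overlapped (log2 fold change -0.61 ± 0.43, edgeR adjusted p = 0.37). By cluster the ratio had opposite signs, with 47.1 CPM in WT against 67.7 CPM in CaMKK2 KO cells of cluster 0 (log2 ratio 0.52) and 106 against 31.9 CPM in cluster 1 (log2 ratio -1.73). These are values of 1 library each. Microglia-like cells had the highest mean Abca1 in both genotypes, 265 ± 66.0 and 193 ± 41.1 CPM, with overlapping mice (log2 fold change -0.45 ± 0.21, adjusted p = 0.27). The genotype difference of Abca1 was 1.21 log2 units less negative in TAM-like than in cMono-like cells. The exact permutation test gave p = 0.0286, the smallest that these mice allow, and an adjusted p of 0.19 over 17 comparisons. A lone difference at that p cannot pass the correction, so the correction cannot decide the question.

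Abcg1, which exports cholesterol to formed particles, showed no change past the test in any class. In TAM-like cells it was at 47.8, 59.7, 73.9 and 72.7 CPM in WT mice and at 58.7, 71.2, 54.8 and 117 CPM in CaMKK2 KO mice. The groups overlapped, with CaMKK2 KO mouse 4 the highest (log2 fold change 0.24 ± 0.24, edgeR adjusted p = 0.55). It was counted in every class, from 18.0 ± 3.44 CPM in TIL-like to 102 ± 25.2 CPM in microglia-like cells of WT mice. In DC2-like cells it was 24.1 ± 3.96 CPM in WT against 40.8 ± 19.2 CPM in CaMKK2 KO mice (log2 fold change 0.67 ± 0.30, adjusted p = 0.31).

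Nr1h3, which encodes the receptor LXRα, had higher mean values in CaMKK2 KO TAM-like cells without passing the test. It was at 9.53, 43.9, 40.8 and 34.2 CPM in WT mice and at 35.4, 96.7, 45.8 and 144 CPM in CaMKK2 KO mice. CaMKK2 KO mouse 1 lay inside the WT range, and WT mouse 1 was the lowest mouse and also the highest in Apoe. The log2 fold change was 1.32 ± 0.53 (edgeR, adjusted p = 0.15), beside log2 ratios of 0.74 within cluster 0 and 0.075 within cluster 1. In microglia-like cells Nr1h3 had 21 UMIs in all, with 0.704 to 2.74 CPM in WT against 4.38 to 15.8 CPM in CaMKK2 KO mice, beside 3.14% of all genes with all CaMKK2 KO mice above all WT mice, and no call at the lowered minimum (adjusted p = 0.13). In cMono-like cells the levels were 50.3 ± 15.4 and 43.0 ± 28.6 CPM (log2 fold change -0.026 ± 0.39).

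Ch25h, an enzyme without introns that hydroxylates cholesterol to an oxysterol and is known as an interferon-induced gene, was at 26.0, 47.4, 66.7 and 74.7 CPM in WT TAM-like cells and at 71.4, 21.1, 62.2 and 29.9 CPM in CaMKK2 KO TAM-like cells. Mice of each genotype lay at both ends of the range (log2 fold change -0.21 ± 0.42, edgeR adjusted p = 0.78). In cMono-like cells Ch25h had 81 UMIs and did not overlap between the genotypes (6.20 to 15.0 against 0 to 4.77 CPM, beside 6.92% of all genes lying that way), with an adjusted p of 0.095 at the lowered minimum. It lies opposite the annotated gene Gm26902, which shares its region on the other strand.

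Plin2, which coats lipid droplets and is a common readout of lipid load, was at 327, 352, 197 and 270 CPM in WT TAM-like cells and at 192, 288, 211 and 305 CPM in CaMKK2 KO TAM-like cells. The groups overlapped (log2 fold change -0.20 ± 0.21, edgeR adjusted p = 0.55). It was lower on average but not past the test in microglia-like cells (162 ± 63.8 and 106 ± 17.1 CPM, log2 fold change -0.61 ± 0.24, adjusted p = 0.21) and in cMono-like cells (378 ± 159 and 236 ± 56.4 CPM, log2 fold change -0.68 ± 0.26, adjusted p = 0.22). In DC3-like cells its 110 UMIs gave 40.2 to 54.8 CPM in WT against 62.5 to 97.7 CPM in CaMKK2 KO mice, without overlap (9.36% of all genes lay that way) and without a call (adjusted p = 0.43 at the lowered minimum).

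Soat1, which esterifies cholesterol for storage, was the steadiest member. In TAM-like cells it was at 137, 145, 137 and 145 CPM in WT mice and at 141, 160, 144 and 151 CPM in CaMKK2 KO mice (log2 fold change 0.076 ± 0.077, edgeR adjusted p = 0.54). Mice of both genotypes fell between 137 and 160 CPM. In NK-like cells Soat1 was at 16.1 to 20.4 CPM in WT against 20.5 to 25.7 CPM in CaMKK2 KO mice, which did not overlap, beside 8.80% of all genes with all CaMKK2 KO mice above all WT mice. Its log2 fold change there was 0.31 ± 0.17 (adjusted p = 0.34).

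**Figure D4:**
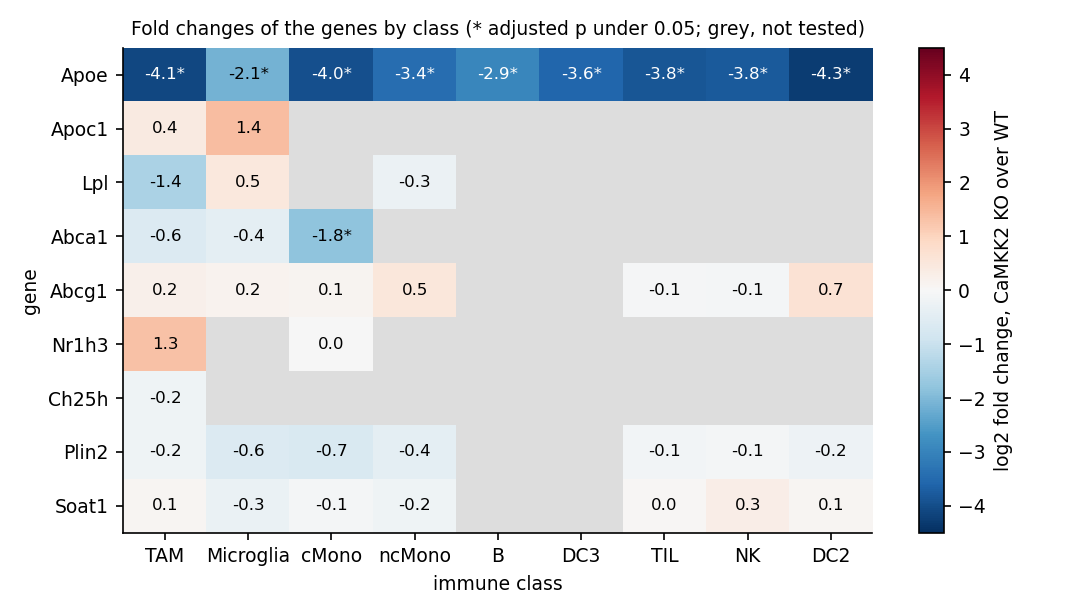
Heat map of the log2 fold change (CaMKK2 KO over WT, edgeR) of 9 of the genes by immune class, with an asterisk for an adjusted p under 0.05 and grey where no test was made (Apoc2 was tested in no class at the main minimum). Apoe is marked in all 9 classes, from -4.26 to -2.14, and Abca1 in cMono-like cells at -1.80, and no other square is marked. The part of free RNA in the marks of the dendritic, NK, T and B cell-like classes was not tested.

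Over all classes 41 pairs of a member and a class were tested at the minimum of 200 UMIs, and 10 passed, 9 of them for Apoe and 1 for Abca1, all lower in CaMKK2 KO. By class, 0.334% (TIL-like) to 2.39% (TAM-like) of all genes were called lower. In NK-like, TIL-like and DC3-like cells the ratio of Apoe to C1q genes stood close to that of TAM-like cells. The part of free RNA in these Apoe calls was not tested. A further 21 pairs were testable only at 20 UMIs, and 2 of these passed (Apoc2 in TAM-like and Abca1 in ncMono-like cells). At that minimum 276 of 12468 genes were called lower in TAM-like cells and 72 of 8646 in ncMono-like cells. The medians of the tested members were -0.28 in microglia-like, -0.39 in cMono-like, -0.27 in ncMono-like, -0.067 in DC2-like, -0.093 in NK-like and -0.094 in TIL-like cells, beside -0.12, -0.018, -0.013, 0.055, 0.077 and 0.082 for all genes tested. Library scaling bears on such medians: with TMM factors the median of all genes in TAM-like cells moved from -0.098 to 0.0036, and the split of calls from 156 higher and 229 lower to 194 higher and 137 lower.

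A list of 56 other genes of cholesterol and lipoprotein handling held 43 that were tested in TAM-like cells. Of these, 1 rose, 2 fell and 40 did not pass (median -0.17, beside -0.10 for all genes), where 1.63% of all genes were called higher and 2.39% lower. Tspo, a mitochondrial protein that binds cholesterol, rose from 497 ± 79.2 to 852 ± 192 CPM (log2 fold change 0.78, edgeR adjusted p = 0.046). Lipa, the lysosomal lipase that frees cholesterol from esters, fell from 132 ± 24.3 to 86.2 ± 5.00 CPM (-0.62, adjusted p = 0.036), and Nceh1, a hydrolase of cholesterol esters, fell from 68.3 ± 9.25 to 41.9 ± 9.82 CPM (-0.70, adjusted p = 0.049). These calls were near the threshold: Tspo passed under 12 of 18 alternatives, Lipa under 10 and Nceh1 under 6, and in TAM-like cells over 10000 CPM of C1q genes Lipa and Nceh1 did not pass (adjusted p = 0.084 and 0.11). None of the 8 tested genes grouped with LXR as receptors, partners or targets (Nr1h2, Rxra, Rxrb, Mylip, Srebf1, Lpcat3, Scd2 and Pltp) passed in TAM-like cells. None of the 7 tested uptake receptors passed there either.

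In microglia-like cells 27 genes of that list were tested, and 1 fell, beside 0.951% of all genes. This was Mylip, a ubiquitin ligase and a target of LXR, at 238, 323, 222 and 269 CPM in WT mice and at 142, 105, 175 and 150 CPM in CaMKK2 KO mice. The groups did not overlap (log2 fold change -0.87, edgeR adjusted p = 0.026), and it passed under 10 of 17 alternatives. In cMono-like cells 1 of 35 tested genes fell (Sorl1, an uptake receptor, beside 1.61% of all genes), in NK-like cells 2 of 24 rose (Abca7 and Tspo, beside 3.04% of all genes), and in DC2-like cells 0 of 29 passed.

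Genes beside Apoe on chromosome 7 were read as a check on whether the region moved as a whole. Of 11 neighbours, 8 were tested in TAM-like cells, with a median log2 fold change of -0.060. Clptm1, which lies 31075 bases away, fell (-0.49 ± 0.093, edgeR adjusted p = 0.026), as did 2.39% of all genes. It passed under 12 of 18 alternatives and was lost, among others, with TMM factors (adjusted p = 0.053), without CaMKK2 KO mouse 2 (0.082) and in TAM-like cells over 10000 CPM of C1q genes (0.052). Tomm40, 2124 bases from Apoe, had -0.31 ± 0.16 (adjusted p = 0.24) and Apoc4 -0.43 ± 0.71 (adjusted p = 0.72). Nectin2 (-0.067), Clasrp (-0.053), Gemin7 (0.080), Bcl3 (0.41) and Relb (0.44) did not pass. Cblc, Bcam and Zfp296 had 0, 1 and 44 UMIs in TAM-like cells and were not tested. In microglia-like cells 0 of 5 tested neighbours passed. All CaMKK2 KO mice were below all WT mice there for Tomm40 (-1.02, edgeR adjusted p = 0.075) and Clptm1 (-0.61, 0.105). This pattern held for 8.39% of all genes in that class. It also held for Clptm1 in cMono-like (-0.47, 0.21) and Tomm40 in NK-like cells (-0.33, 0.16). Gemin7 lay the other way in TIL-like cells (0.34, 0.21). No neighbour passed in any of these classes.

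**Figure D5:**
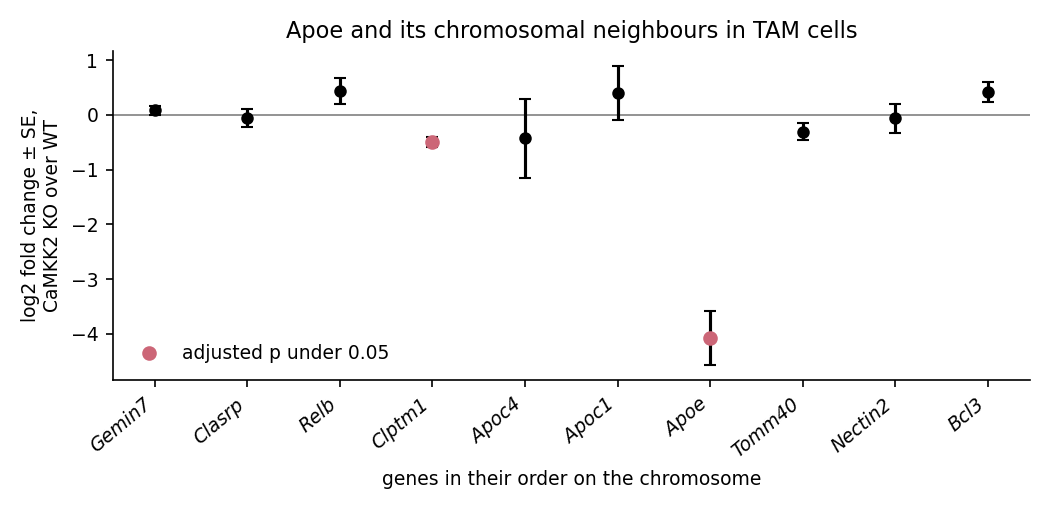
Log2 fold change (CaMKK2 KO over WT, edgeR) with SE in TAM-like cells of Apoe, Apoc1 and the 8 tested neighbours, in their order along the chromosome and not to scale, with red for an adjusted p under 0.05. Apoe stands at -4.08, Clptm1 at -0.49 is the other red point, and all others lie between -0.43 and 0.44.

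The 5 genes whose level over 76 combinations of class and mouse ran most alike with Apoe, among 11277 genes with at least 200 UMIs, were C5ar1 (r = 0.80), Stab1 (0.80), Rnase4 (0.79), Ctsl (0.79) and Atp13a2 (0.77). The measure was Pearson's r of log2(CPM + 10), and the points share libraries, mice and depth, so it is given as a description. Of the members Abca1 came nearest (r = 0.76, rank 13), followed by Apoc1 (0.67, rank 85) and Lpl (0.64, rank 145), and Abcg1 was the farthest among those ranked (0.44, rank 979). Within WT alone the r of Abca1 with Apoe was 0.85 and within CaMKK2 KO alone 0.81, over 38 points each.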

How the data were processed

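Single-cell 3′ libraries (10X v3.1) of 1 WT and 1 CaMKK2 KO pool of 4 hashtagged mice were analysed. The authors deposited raw counts, UMIs per gene and hashtag for each cell barcode, made with bcl2fastq 2.20, Cell Ranger 4.0.0 and STAR 2.7.5c against mm10 according to the labels and the submitters' processing notes. The values are not normalized.

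From these, mice were assigned by hashtag. In WT, 5974 of 6689 barcodes were singlets, 667 doublets and 48 negative, and in CaMKK2 KO 6696 of 7271, 508 and 67. Cells with under 200 genes or over 3 median absolute deviations from the median (725 and 929) were removed. Scrublet's own threshold marked 1 and 7 cells, so the 222 and 169 top-scoring cells were removed as doublets. The 5061 and 5627 remaining cells had median depths of 12642 and 11359 UMIs. They were clustered with Seurat 5.3.0 and sctransform 0.4.2 (resolution 0.5) and clusters were named by markers. Classes called X-like are rebuilt here and may differ from the study's.

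UMIs were summed per class and mouse (at least 10 cells, 3 mice a group, 200 UMIs a gene) and tested with edgeR 4.0.16 (quasi-likelihood, library totals, Benjamini-Hochberg adjustment, threshold 0.05) in R 4.3.3. Cells of a mouse were not used as replicates, and p-values measure the spread between mice within a pool. On simulated data for TAM-like cells (9578 genes) 66.7% of 2-fold and 96.6% of 4-fold changes were recovered. Differences between classes used log2(CPM + 10) and exact two-sided permutation tests. Named genes were all members, pathway genes past the threshold in TAM-like or microglia-like cells, tested neighbours of Apoe, and the 5 genes most like Apoe. The other called pathway genes were named after their values were seen. Alternatives were DESeq2 1.42.0, TMM factors, other filters, classes and depths, subtraction of the level in B cells, and leaving out each mouse. The members and lists were chosen with earlier results of these data known.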

Additional observations from a re-analysis of the deposited data

Results flagged for a closer look

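In 8 of 75 groups of 4 mice looked at, 1 mouse stood far from the other 3 by Dixon's ratio, which chance does in about 1 in 20 groups. Apoe was highest in CaMKK2 KO mouse 3 in cMono-like cells (1490 CPM) and in ncMono-like cells (1371 CPM), and in WT mouse 1 in ncMono-like cells (10211 CPM). Apoc1 was highest in WT mouse 1 in TAM-like cells (30.9 CPM) and in CaMKK2 KO mouse 2 in microglia-like cells (270 CPM). Plin2 was highest in WT mouse 2 in microglia-like cells (257 CPM). Soat1 was lowest in CaMKK2 KO mouse 3 in ncMono-like cells (144 CPM) and in CaMKK2 KO mouse 4 in DC2-like cells (89.6 CPM). Of 17 differences between classes in the genotype effect, 0 passed the adjusted threshold, which a lone difference at the smallest possible p cannot pass.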

How the results depend on the processing

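Of 562 values of 38 results under alternatives, 513 kept their direction and side of the threshold (or moved by less than the limit set for values without a test). Apoe in TAM-like cells stayed past the threshold under all 18 alternatives. With the B cell-like level subtracted, Apoe was -1.89 in microglia-like (adjusted p = 0.069) and -3.92 in cMono-like cells (0.32), and Abca1 in microglia-like cells reversed to 0.13. Abcg1 moved to 3.07 in TAM-like, 1.53 in cMono-like and 1.09 in microglia-like cells, and none of these values was past the threshold. The subtraction takes the whole level of B cell-like cells as free RNA. Their mean Abcg1 was 66.4 CPM in WT mice, beside 63.5 CPM in WT TAM-like cells. For Apoe in cMono-like cells the subtraction left CaMKK2 KO mice 2 and 4 without counts. With outlying cells kept, Apoe in cMono-like cells was -4.14 (0.057). Leaving out 1 mouse gave -5.26 to -3.60, and the call was lost without CaMKK2 KO mouse 1 (0.051) or 2 (0.056). In B cell-like cells it was lost with DESeq2 (0.059), with doublets kept and without any 1 of 7 mice (up to 0.12). Reversals of uncalled values, where the cause was not tested, were Nr1h3 in cMono-like cells with outlying cells kept (0.29), doublets kept (0.12), resolution 1.0 (0.64) and the cell-by-cell gate (0.89), and Soat1 there with outlying cells kept (0.037) and resolution 1.0 (0.053). Leaving out 1 mouse reversed Abcg1 in TAM-like (-0.047 to 0.36) and cMono-like cells (-0.23 to 0.33), Nr1h3 in cMono-like (-0.64 to 0.21) and Ch25h in TAM-like cells (-0.50 to 0.033). Members called in TAM-like cells numbered 1, and 2 at 20 UMIs, with no filter and without CaMKK2 KO mouse 1 (range 1 to 2). In microglia-like cells they numbered 1, 2 with no filter (Apoc1, adjusted p = 0.0040) and 0 after subtraction. In cMono-like cells they numbered 2, 4 with no filter, 1 by the gate, 0 with outlying cells kept or after subtraction, and 0 to 2 leaving out 1 mouse. No paired analysis was possible because hashtag numbers only name the mice of a pool. Members with few UMIs (Apoc2, and Apoc1 and Lpl outside macrophages) are limited by depth, and counting error alone does not cover differences between the pools.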

Other observations

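Trem2, a lipid receptor of phagocytes that binds ApoE, was at a mean of 550 CPM in WT against 343 CPM in CaMKK2 KO mice in TAM-like cells and did not pass the test (edgeR, adjusted p = 0.090). It was chosen after its values were seen.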
